A study of Homo sapiens with 4 samples.

Results

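The genes described here are 4 FGF receptor genes (FGFR1, FGFR2, FGFR3 and FGFR4), the receptor tyrosine kinase gene RET, and DUSP6, which encodes a phosphatase of the ERK feedback loop. They were taken by name, 6 of the 33538 genes of the deposited matrix, and each has both a row of the targeted pan-cancer panel (1253 rows) and a row among the plain gene symbols. The cells were MDA MB 134VI (MM134), an established line of invasive lobular breast carcinoma labelled wild type, grown without hormone. They then received either vehicle, which was 0.01% ethanol, or 100 nM of estradiol, the main natural estrogen, for 24 h. Each treatment was 1 library, of 4940 vehicle cells and 3367 estradiol cells. Since no treatment was replicated, nothing was tested: intervals are exact 95% intervals that cover counting error only, not variation between cultures or between cells.

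FGF receptors bind fibroblast growth factors at the cell surface, and RET binds ligands of the GDNF family together with GFRA co-receptors. Both kinds of receptor signal through adaptors such as FRS2 and GRB2 to RAS, RAF, MEK and the ERK kinases. ERK raises transcription of DUSP6, and the DUSP6 protein removes phosphate from ERK, which closes a negative feedback loop. MM134 is known for amplification of the 8p chromosome region that holds FGFR1, and RET is a known estrogen-regulated gene in breast cancer cells that express the estrogen receptor.

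FGFR2 lies on chromosome 10 (121478330 to 121598458, GRCh38.p14), FGFR3 on chromosome 4 (1793293 to 1808867) and FGFR4 on chromosome 5 (177086915 to 177098144). RET lies on chromosome 10 (43077069 to 43130351) and DUSP6 on chromosome 12 (89347235 to 89352501). The promoters of the 4 genes with the largest panel differences between the libraries are shown because RET and FGFR3 were higher with estradiol, and FGFR4 and DUSP6 lower. Each runs 5′ to 3′ on the strand of the gene, from 250 bases before to 50 bases after a RefSeq start of GRCh38.p14. RET is chr10:43076819-43077118 (plus strand), FGFR3 chr4:1793043-1793342 (plus), FGFR4 chr5:177086665-177086964 (plus) and DUSP6 chr12:89352452-89352751 (minus). Capitals mark, on either strand, the GC box GGGCGG and 3 kinds of ETS-type letters (CGGAAG or CCGGAA or AGGAAG).
RET: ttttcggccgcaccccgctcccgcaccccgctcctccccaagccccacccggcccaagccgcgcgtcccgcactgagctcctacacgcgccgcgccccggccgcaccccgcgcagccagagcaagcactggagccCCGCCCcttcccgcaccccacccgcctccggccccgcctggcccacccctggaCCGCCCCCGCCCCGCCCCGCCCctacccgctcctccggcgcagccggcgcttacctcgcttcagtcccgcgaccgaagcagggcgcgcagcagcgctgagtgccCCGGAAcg
FGFR3: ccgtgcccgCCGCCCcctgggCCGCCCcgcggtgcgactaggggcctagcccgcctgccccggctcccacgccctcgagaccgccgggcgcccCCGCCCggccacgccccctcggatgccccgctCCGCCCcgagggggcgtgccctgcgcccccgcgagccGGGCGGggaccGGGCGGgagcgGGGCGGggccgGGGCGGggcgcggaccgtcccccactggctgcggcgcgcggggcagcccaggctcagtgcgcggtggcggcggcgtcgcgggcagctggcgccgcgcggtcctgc
FGFR4: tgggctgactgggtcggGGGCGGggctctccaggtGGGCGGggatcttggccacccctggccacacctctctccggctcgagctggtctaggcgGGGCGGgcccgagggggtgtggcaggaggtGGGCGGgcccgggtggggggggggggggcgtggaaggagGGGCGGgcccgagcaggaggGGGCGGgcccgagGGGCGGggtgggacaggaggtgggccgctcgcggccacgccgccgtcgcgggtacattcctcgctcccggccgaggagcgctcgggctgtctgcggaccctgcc
DUSP6: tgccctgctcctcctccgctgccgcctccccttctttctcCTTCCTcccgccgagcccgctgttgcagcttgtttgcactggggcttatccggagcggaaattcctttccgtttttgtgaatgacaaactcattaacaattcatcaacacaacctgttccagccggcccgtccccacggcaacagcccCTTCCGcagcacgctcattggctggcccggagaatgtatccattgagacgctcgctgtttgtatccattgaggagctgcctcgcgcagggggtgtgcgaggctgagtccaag

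With both strands searched, the GC box was found 5 times in the RET window, 8 times in that of FGFR3 and 7 times in that of FGFR4, with overlapping matches counted separately. The DUSP6 window held 0 GC boxes, 1 CGGAAG and 1 AGGAAG, and the RET window held 1 CCGGAA near its end. Over 35116 RefSeq promoter windows of the same length, 45.0% held a GC box, 19.5% CGGAAG, 17.2% CCGGAA and 33.6% AGGAAG. The estrogen receptor half-site GGTCA, present in 37.4% of all windows, and the full element, in which GGTCA, any 3 bases and TGACC follow each other, present in 0.0570%, had 0 matches in the 4 windows printed. GC content was 78.7% for RET, 86.3% for FGFR3, 78.7% for FGFR4 and 58.3% for DUSP6, against a median of 58.7%. RET and FGFR4 have a second listed start that is not printed here. A match is a description of letters only.

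The panel libraries held 14080930 UMIs (vehicle) and 10352943 UMIs (estradiol), with medians of 2426.5 and 2676 per cell; the plain rows, called all-gene rows below, held 6918198 and 5937422. Levels are given as CPM, which are UMIs per 1000000 UMIs of the library in the same kind of row. All 7 luminal markers (EPCAM, KRT8, KRT18, KRT19, ESR1, GATA3 and FOXA1) were detected, and CDH1, the E-cadherin gene often lost in lobular tumours, was at 10.1 and 10.3 CPM in the all-gene rows. In those rows all 5 basal markers were at 0 UMIs, the 4 endothelial and 5 immune markers summed to at most 0.289 CPM in either library, and of 6 fibroblast markers only COL1A1 had UMIs (26.0 CPM with vehicle and 21.1 with estradiol). In panel rows CDH1 was at 147.5 CPM with vehicle and 140.6 with estradiol, and COL1A1 at 392.5 and 280.3. The basal marker TP63 had 25 and 13 panel UMIs, and the fibroblast marker PDGFRB 6 and 3. Panel rows of immune markers summed to 0.781 and 1.26 CPM, and that of the endothelial marker KDR held 0.426 and 0.0966. The median mitochondrial percent was 7.66 and 7.62, and 4 cell barcodes occurred in both libraries. CCND1 took 10.98% of vehicle and 14.7% of estradiol panel UMIs, and the median panel gene had a log2 ratio of -0.11, against which single ratios are read.

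Estradiol-treated cells had more RET and FGFR3 transcript and less DUSP6 and FGFR4 transcript than vehicle-treated cells, while FGFR1 lay near the median panel gene and FGFR2 could not be told from no difference. In the panel, estradiol cells exceeded vehicle cells by 1.5-fold or more for 2 of the 6 genes (RET and FGFR3) and were lower by as much for 2 (FGFR4 and DUSP6). Of the 940 panel genes with at least 50 UMIs over both libraries, 3.3% were at least 1.5-fold higher and 11.8% at least 1.5-fold lower. All 6 genes met that minimum in the panel, and 4 did in the all-gene rows, where FGFR2 (22 UMIs in all) and FGFR3 (13) fell short.

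FGFR1, the receptor gene within the 8p amplicon, differed little between the libraries: vehicle cells held 21941 CPM (21864 to 22019) and estradiol cells 20132 CPM (20046 to 20219). FGFR1 lies on chromosome 8 (38411143 to 38468635). Its levels came from 308951 and 208427 UMIs, 2.19% and 2.01% of each panel library. The log2 ratio was -0.12 (-0.13 to -0.12), close to the median panel gene, and scaling by the median of ratios gave -0.013. In the all-gene rows the levels were 2124 (vehicle) and 2108 CPM (estradiol), and their log2 ratio was -0.011 (-0.05 to 0.02). FGFR1 thus stood at nearly the same level in both libraries relative to other genes.

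FGFR2 gave few UMIs, 165 in the vehicle library (11.7 CPM, 10.0 to 13.6) and 112 in the estradiol library (10.8 CPM, 8.91 to 13.02). Its log2 ratio of -0.12 had an interval of -0.47 to 0.24, so a difference was not detectable at this depth. FGFR3 had 121 UMIs in the vehicle library, 8.59 CPM (7.13 to 10.3), and 169 in the estradiol library, 16.3 CPM (14.0 to 19.0). The FGFR3 levels did not overlap within counting error, and the ratio was 1.90-fold (log2 0.93, 0.58 to 1.27), rank 10 from the top among the 940 panel genes. The all-gene rows held only 6 and 7 FGFR3 UMIs and set no direction (log2 ratio 0.44, -1.35 to 2.29).

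FGFR4, the FGF receptor gene best known from liver, differed in the opposite direction: 340.03 CPM in vehicle cells (330.5 to 349.8) and 213 CPM in estradiol cells (204 to 222). Estradiol cells were thus 1.60-fold lower (1.52 to 1.68). The all-gene rows gave 23.7 and 14.5 CPM, 1.64-fold lower (1.25 to 2.15), so both kinds of row placed estradiol below vehicle. The panel value lies near the 1.5-fold line: with a median-of-ratios size factor its log2 ratio was -0.56 and with equal weight to each cluster -0.58, both just short of it.

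RET stood at 423 CPM in vehicle cells (412 to 434, 5954 UMIs) and at 755 CPM in estradiol cells (738 to 772, 7817 UMIs). That is 1.79-fold higher (1.73 to 1.85), rank 14 from the top among the 940 panel genes. The all-gene rows gave 35.3 and 67.5 CPM, 1.91-fold higher (1.63 to 2.25), and 3.82% of their 10977 genes at the minimum were at least 1.5-fold higher. RET was therefore higher with estradiol in both kinds of row, by similar amounts; the rows come from the same cells and are not replicates.

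DUSP6, the ERK phosphatase, had 21252 UMIs in vehicle cells, 1509 CPM (1489 to 1530), and 7396 in estradiol cells, 714 CPM (698 to 731). Its estradiol level was 2.11-fold lower (2.06 to 2.17), rank 24 from the bottom among the 940 panel genes, and 1.96-fold lower in the all-gene rows (169.99 and 86.7 CPM, interval 1.77 to 2.18). In those rows 6.67% of genes were at least 1.5-fold lower.

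**Figure D1:**
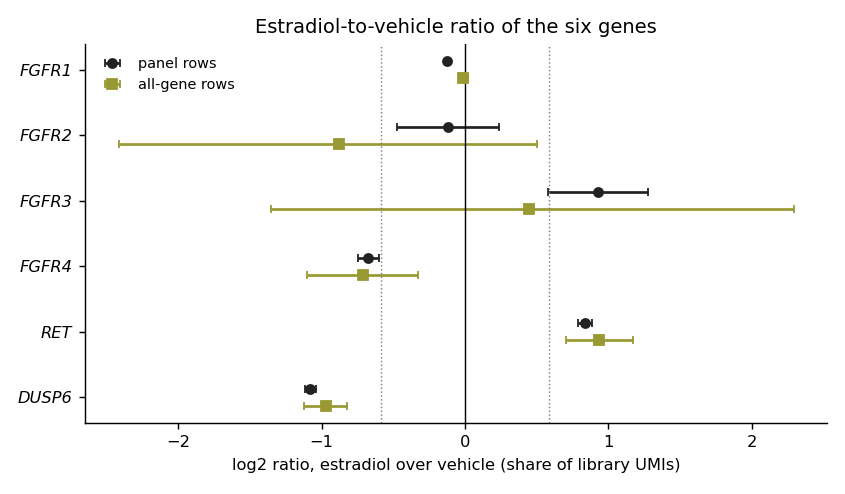
Log2 ratio of estradiol to vehicle for each of the 6 genes in panel rows (black circles) and all-gene rows (olive squares), with exact 95% counting intervals; dotted lines mark 1.5-fold. RET lies right of the upper line and DUSP6 and FGFR4 left of the lower line in both kinds of row, while the all-gene intervals of FGFR2 and FGFR3 span 0.

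The share of cells with a UMI differed in the same direction as the level for RET, FGFR3, FGFR4 and DUSP6. A RET panel UMI was seen in 56.4% of vehicle cells (54.96 to 57.7) and 76.4% of estradiol cells (74.9 to 77.8). For DUSP6 the shares were 84.0% (83.0 to 85.0) and 66.7% (65.1 to 68.3), and for FGFR4 48.1% (46.7 to 49.5) and 39.1% (37.5 to 40.8). FGFR3 was seen in 107 of 4940 vehicle cells, 2.17% (1.78 to 2.61), and 157 of 3367 estradiol cells, 4.66% (3.98 to 5.43). FGFR1 was seen in all but 1 cell of each library, and FGFR2 in 3.14% and 3.15%.

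Estradiol cells were deeper, so each cell was also thinned to 1000 panel UMIs, which left out 78 vehicle and 12 estradiol cells. RET was then seen in 31.6% (30.3 to 32.9) and 48.4% (46.7 to 50.1) of cells, DUSP6 in 66.2% (64.9 to 67.6) and 41.1% (39.5 to 42.8), and FGFR4 in 28.0% (26.8 to 29.3) and 19.4% (18.1 to 20.8), vehicle first. None of these 3 pairs of intervals overlapped. The thinned shares of FGFR3 were 0.884% (0.640 to 1.19) and 1.55% (1.16 to 2.03), which overlap slightly, and those of FGFR2 1.23% and 0.745%. With a single cell line there is no cell type that should lack these genes, so no background share of free RNA could be set beside the low shares of FGFR2 and FGFR3.

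**Figure D2:**
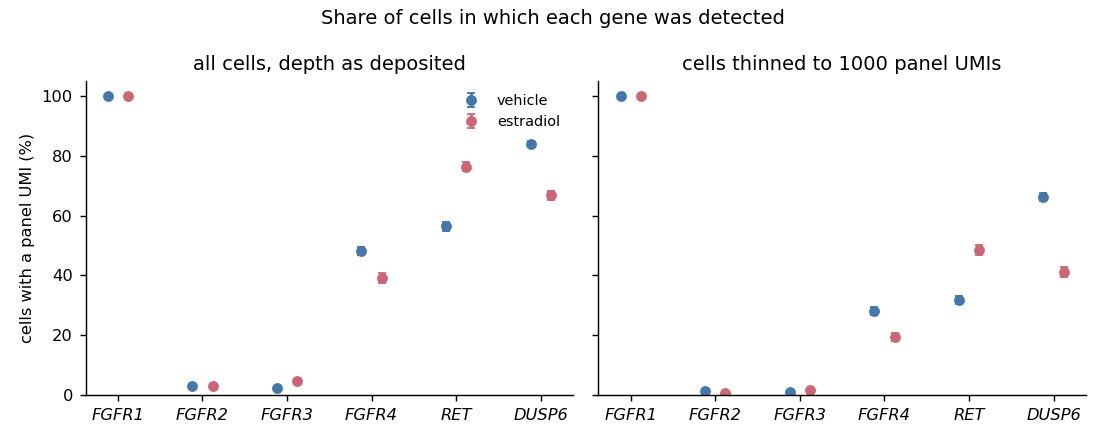
Percent of cells with at least 1 panel UMI of each gene, at the deposited depth (left) and after thinning to 1000 panel UMIs (right), with exact binomial 95% intervals; blue is vehicle and red is estradiol. RET is higher, and FGFR4 and DUSP6 are lower, in estradiol cells at either depth.

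Cells also differed in how much of a gene they held. In the thinned cells FGFR1 had a mean of 22.1 UMIs with vehicle (SD over cells 8.45, n = 4862 cells) and 20.1 with estradiol (SD 8.16, n = 3355 cells), and the middle 80% of cells ran from 12 to 33 and from 11 to 31 UMIs. The variance over cells was 3.24 and 3.31 times the mean for FGFR1, where counting alone gives about 1, and 1.96 and 1.73 times the mean for DUSP6. For RET it was 1.25 and 1.37 times the mean, for FGFR4 1.33 and 1.18 times. Where cells differ, this ratio rises with the mean, so it does not rank genes of unlike mean by variability. The mean was 1.57 and 0.69 UMIs for DUSP6, 0.43 and 0.78 for RET and 0.38 and 0.23 for FGFR4. At the deposited depth, cells with 5 or more DUSP6 UMIs made up 34.8% of the vehicle and 14.4% of the estradiol library. For RET such cells were 4.51% and 15.5%, and for FGFR4 3.12% and 1.16%. After thinning, cells with 5 or more UMIs made up 7.30% and 1.31% for DUSP6. They were only 3 and 23 cells for RET, and 7 and 1 for FGFR4. The shares of cells with many UMIs of these genes thus differed in the same direction as detection. A difference in mean alone would shift these shares, so they are not a separate finding.

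The libraries differed in phase by the authors' calls: 50.5% of vehicle and 34.5% of estradiol cells were G1, 15.6% and 29.0% S, and 33.9% and 36.4% G2M. FGFR4 differed most between phases. With vehicle it was at 504 CPM in G1 (486 to 522), 337 in S (313 to 363) and 173 in G2M (163 to 184). With estradiol it was at 328 (308 to 348), 233 (216 to 252) and 110.05 CPM (100.2 to 120.6). G2M cells were thus 2.91-fold below G1 cells with vehicle and 2.98-fold below with estradiol, and the all-gene rows had the same order (38.6, 25.4 and 7.36 CPM with vehicle). Phases were called from these same cells, so contrasts between them are descriptions.

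In each phase FGFR4 was lower with estradiol, with log2 ratios of -0.62 in G1 (-0.72 to -0.52), -0.53 in S (-0.69 to -0.38) and -0.65 in G2M (-0.82 to -0.49). In the all-gene rows the G2M ratio was 0.02 (-0.98 to 1.00) on 21 and 18 UMIs and the S ratio -0.76 (-1.61 to 0.08) on 27 and 25 UMIs. Only the G1 ratio there, -0.74 (-1.28 to -0.22), excluded no difference.

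RET was at 476 CPM in G1, 516 in S and 335 in G2M with vehicle, and at 890.3, 762 and 645 CPM with estradiol. The highest vehicle level, 516 CPM in S (486 to 548), lay below the lowest estradiol level, 645 CPM in G2M (621 to 670). The log2 ratios of estradiol to vehicle were 0.90 in G1 (0.83 to 0.98), 0.56 in S (0.46 to 0.67) and 0.94 in G2M (0.86 to 1.03). The S ratio lay below the other two beyond counting error and just under the 1.5-fold line. S cells ranked above G1 cells with vehicle (log2 0.12, 0.02 to 0.22) and below them with estradiol (-0.22, -0.30 to -0.14).

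DUSP6 was at 1846, 1344 and 1225 CPM in G1, S and G2M with vehicle, and at 889.7, 749.8 and 554 CPM with estradiol. Every vehicle phase lay above every estradiol phase, with log2 ratios of -1.05 (-1.11 to -0.99), -0.84 (-0.92 to -0.76) and -1.15 (-1.21 to -1.08). The all-gene rows gave -0.72, -0.98 and -1.18, so the order of the phases by ratio differed between the rows.

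FGFR1 was highest in G1 and lowest in S in each library, at 23859, 18662 and 21162 CPM in G1, S and G2M with vehicle and 22469, 17958 and 19811 with estradiol. Its panel log2 ratios within G1, S and G2M were -0.09, -0.055 and -0.095, with each interval below 0. The all-gene rows gave 0.066 (0.011 to 0.12), 0.12 (0.036 to 0.21) and -0.028 (-0.082 to 0.027), so the sign in G1 and S differed between the kinds of row. FGFR3 was at 7.11, 15.0 and 7.79 CPM with vehicle and 11.6, 14.9 and 21.0 CPM with estradiol, so that the log2 ratio was -0.01 in S (-0.71 to 0.69) and 1.43 in G2M (0.90 to 1.98). The FGFR3 interval in G1, 0.04 to 1.37, just excluded no difference. FGFR2 was between 9.60 and 16.4 CPM in all 6 groups of phase and treatment, and its intervals between treatments spanned 0 in each phase.

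By the 1.5-fold line, the 6 genes split in G1 into 2 higher (FGFR3 and RET) and 2 lower (FGFR4 and DUSP6), in S into 0 and 1, and in G2M into 2 and 2. Over panel genes at the minimum the shares higher and lower were 6.04% and 12.4% in G1, 1.77% and 8.14% in S, and 3.05% and 10.3% in G2M.

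**Figure D3:**
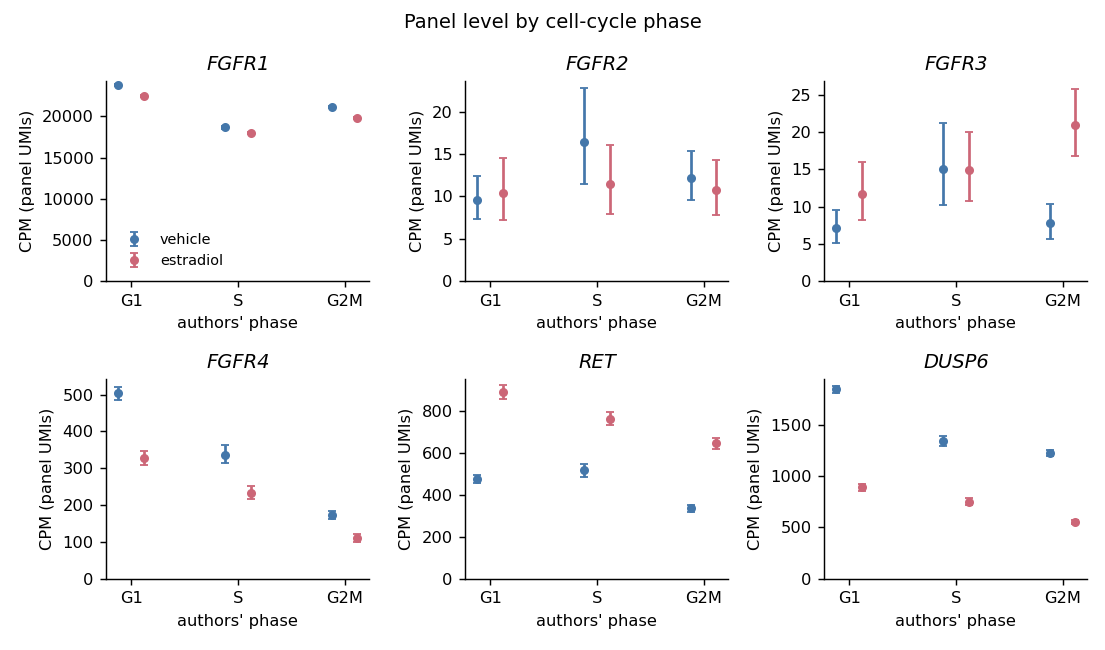
Panel level in CPM for each gene in the authors' G1, S and G2M cells, vehicle in blue and estradiol in red, with exact Poisson 95% intervals and axes from 0. FGFR4 steps down from G1 to G2M in both libraries, and every estradiol point of RET lies above, and of DUSP6 below, every vehicle point.

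The authors' 8 clusters were filled unequally. Cluster 2 held 23.3% of vehicle and 2.44% of estradiol cells and cluster 6 12.7% and 2.35%, both mostly G1, whereas cluster 1, rich in S cells, held 12.1% and 26.8%. RET was higher with estradiol in all 8 clusters, with intervals above a ratio of 1 in each, and 2.75% of the 728 panel genes with at least 50 UMIs in every cluster shared that. FGFR4 and DUSP6 were lower in all 8 with intervals below 1, shared by 8.79% of those genes. The log2 intervals of FGFR4 in cluster 0 (-0.45 to -0.01) and cluster 2 (-0.96 to -0.07) held the median panel ratio of -0.11. Against that median its difference in these clusters was not resolved. The all-gene rows, with far fewer UMIs per cluster, gave a mixed picture. There RET was above a ratio of 1 in all 8 clusters with 5 intervals that excluded 1. DUSP6 was below in 7 with 5 such intervals and above in cluster 2 (log2 0.26, -0.65 to 1.05). FGFR4 was below in 6 and above in clusters 0 and 7, and 0 of its 8 intervals excluded 1. FGFR1 had 5 panel intervals below 1 and 0 above, but in the all-gene rows 1 below and 3 above (clusters 1, 5 and 7, at 0.19, 0.19 and 0.18), so its direction within clusters depended on the kind of row. FGFR3 had panel intervals above 1 in 3 clusters (0, 4 and 7).

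RET was highest in cluster 5, made almost wholly of G1 cells, at 727 CPM with vehicle (673 to 785) and 1070.1 with estradiol (1000.8 to 1142.9). No other cluster reached these intervals within its library. With vehicle clusters 1, 3 and 2 followed at 547, 510.1 and 477 CPM, each overlapping its neighbour, then clusters 0, 7 and 6 at 379.6, 319.9 and 306, and cluster 4, all G2M, at 261. With estradiol clusters 7, 3, 1, 2 and 0 ran from 818 to 685 CPM, neighbours overlapping, and clusters 4 and 6 were at 525 and 475. The log2 ratio was smallest in cluster 1 at 0.50 (0.38 to 0.63) and largest in cluster 7 at 1.35 (1.11 to 1.60), intervals that did not overlap.

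DUSP6 had its highest level in cluster 6, at 2504 CPM in vehicle cells (2434 to 2575) and 1915 in estradiol cells (1739 to 2105). Cluster 2 came next at 1798 and 1313 CPM then cluster 3 at 1552 and 846, and cluster 4 had the lowest values at 911 and 473, overlapping cluster 5 with vehicle and clusters 7 and 0 with estradiol. The first 3 places were the same in both libraries, without overlap between clusters 6, 2 and 3. With estradiol, however, cluster 3 (815 to 878) overlapped cluster 1 (779 CPM, 740 to 818), so place 3 was not resolved there. Clusters 1, 7 and 0 with vehicle (1366, 1344 and 1331 CPM) could not be ordered. The log2 ratio ran from -1.39 in clusters 0 and 7 to -0.39 in cluster 6 (-0.53 to -0.24). The clusters where DUSP6 was highest were thus those that held few estradiol cells (82 in cluster 2 and 79 in cluster 6). With equal weight to each cluster the overall log2 ratio was -0.76, against -1.08 over all cells, a weighting added after the data were seen.

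FGFR4 was highest in clusters 5 and 2, at 621 and 593 CPM with vehicle and 432 and 419 with estradiol, overlapping in each library. Clusters 3, 6 and 1 formed a middle tier, from 380.1 to 415 CPM with vehicle and 233 to 259 with estradiol. Clusters 7, 4 and 0 were lowest, at 190.1, 164 and 142 CPM with vehicle and 125, 104 and 121 with estradiol. Of these, clusters 4 and 0 held mostly G2M cells. Ratios between treatments ran from -0.83 in cluster 3 (-0.97 to -0.69) to -0.23 in cluster 0 (-0.45 to -0.01). These intervals did not overlap each other, but the intervals of the other 6 clusters overlapped both, so the order of the clusters by ratio was not resolved.

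FGFR1 was at 26672 CPM in cluster 5 and 25441 in cluster 2 with vehicle, and at 19276 and 19059 in clusters 0 and 1. With estradiol cluster 6 was lowest, at 16330 CPM (15806 to 16867), and its ratio of -0.40 (-0.45 to -0.35) was the most negative of the 8 in the panel. The all-gene ratio there was -0.13 (-0.33 to 0.066), which spans 0, and cluster 0 rather than 6 had the lowest all-gene level with estradiol (1831 against 1912 CPM). FGFR3 reached 43.5 CPM in estradiol cells of cluster 7 (24.8 to 70.6, 16 UMIs), against 14.1 with vehicle (7.05 to 25.3, 11 UMIs). It had 0 UMIs in the estradiol cells of cluster 2, where 109663 panel UMIs in all allow a level of up to 33.6 CPM. FGFR2 lay between 7.25 and 15.5 CPM across clusters, with every interval of its ratio spanning 0.

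**Figure D4:**
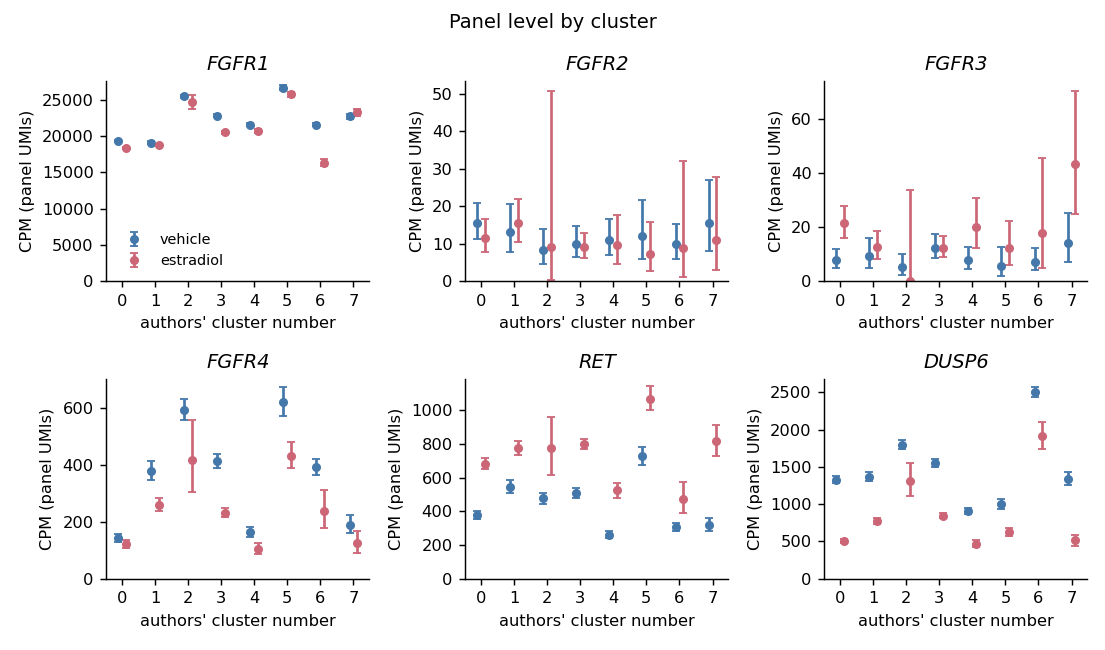
Panel level in CPM for each gene in the authors' clusters 0 to 7, vehicle in blue and estradiol in red, with exact Poisson 95% intervals and axes from 0. Estradiol points lie above vehicle points for RET, and below for FGFR4 and DUSP6, in each cluster, and DUSP6 peaks in cluster 6.

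Across the 16 groups of treatment by cluster, the panel genes with levels most like each gene were found by Pearson correlation of log2(CPM + 1) over 811 other genes with at least 500 UMIs. For RET these were JAK2, WNT4 and EGR3 (r of 0.92, 0.91 and 0.90), and for DUSP6 MLLT3, FAT1 and TCF7L2 (0.96, 0.92 and 0.92). FGFR4 was followed most closely by EIF4A2, MAP3K12 and IRF2 (0.94, 0.92 and 0.91), and FGFR1 by RYBP, CASZ1 and CDKN1C (0.86, 0.85 and 0.82). The groups share libraries and cluster calls, so these values only describe.

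The rest of the pathway was described from a list of 81 genes. Of these, 55 have a panel row and 37 met the minimum there; 1 exceeded 1.5-fold on the higher side and 3 on the lower. The median log2 ratio was -0.10, against -0.11 over all panel genes tested. In the all-gene rows 42 met the minimum, 3 were higher and 3 lower, and the median was -0.05 against -0.03. For comparison, the shares of all tested genes were 3.3% higher and 11.8% lower in the panel, and 3.82% and 6.67% in the all-gene rows.

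Co-receptors were measured in the all-gene rows alone. GFRA1, the co-receptor through which GDNF binds RET, was at 2.17 CPM with vehicle (15 UMIs) and 8.08 with estradiol (48 UMIs), 3.73-fold higher, with a log2 interval of 1.04 to 2.84. FGFRL1, an FGF receptor family member without a kinase domain, was at 9.68 and 14.99 CPM, 1.55-fold higher (log2 0.63, 0.16 to 1.11). Only these 2 of 8 co-receptors met the minimum, and both were at least 1.5-fold higher, as were 3.82% of all tested all-gene rows. The minimum sums both libraries, and GFRA1 met it mainly through its estradiol UMIs. GFRA2, with 29 vehicle and 15 estradiol UMIs, fell short and pointed the other way (log2 -0.73, -1.74 to 0.22). KLB (10 UMIs in all) and GFRA3 (4) also fell short, with ratios above 1 and intervals that spanned 0. These 3 were named after their values were seen. A shared direction of the co-receptors was therefore not shown. KL, GFRA4 and GFRAL had 0 UMIs.

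Of the ligand genes, 6 of 22 panel rows met the minimum and 0 reached 1.5-fold either way. Over all tested panel genes 3.3% were that much higher and 11.8% lower, so 0 of 6 is not read as a trait of the ligands. FGF13 and FGF12, which encode FGF homologous factors that stay within the cell, had log2 ratios of -0.36 (-0.56 to -0.16) and -0.32 (-0.43 to -0.22), and FGF22 was at 0.25 (-0.02 to 0.51). In the all-gene rows ARTN and NRTN, ligands of the GDNF family, were at 0.54 and 0.34 with intervals that spanned 0, as did that of FGF17 (0.41). GDNF itself had 0 UMIs in either library. Below the minimum, FGF19 had 3 vehicle and 15 estradiol panel UMIs (log2 2.77, 0.94 to 5.20). GDF15 had 23 and 8 UMIs in the all-gene rows (-1.30, -2.67 to -0.09). Both were named after their values were seen, and they point in opposite directions.

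Of the adaptors and kinases, all 20 panel members met the minimum and 0 passed 1.5-fold, with ratios from -0.54 to 0.42. Over all tested panel genes 3.3% were at least 1.5-fold higher and 11.8% lower, so 0 of 20 is not read as a trait of the group. FRS2, the docking adaptor of FGF receptors, was at 632 and 847 CPM (log2 0.42, 0.38 to 0.47). GRB2, which links receptors to SOS, was at 4185 and 3046 CPM (-0.46, -0.48 to -0.44), and the RAS exchange factor SOS2 at 507 and 349 CPM (-0.54, -0.60 to -0.48). The all-gene rows gave 0.47 for FRS2, 0.42 for HRAS and -0.42 for SOS2.

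ERK feedback and ERK-induced genes did not share one direction. In the panel 11 of 13 met the minimum, of which 1 passed 1.5-fold on the higher side and 3 on the lower, where 3.3% and 11.8% of all tested panel genes did. FOS, an immediate-early transcription factor gene, was at 1100.4 and 529.7 CPM (log2 -1.05, -1.10 to -1.01), close to the ratio of DUSP6. SPRY1, a Sprouty inhibitor of receptor signalling, was at 4.90 and 1.45 CPM (-1.76, -2.67 to -0.94) and the ETS factor gene ETV1 at 14.1 and 8.31 CPM (-0.76, -1.14 to -0.39). The gene on the higher side was MYC, at 169.9 and 271.4 CPM (0.68, 0.60 to 0.75), named after its value was seen, as were the next 5 genes. In the all-gene rows MYC was at 0.50 (0.25 to 0.74), short of the 1.5-fold line. DUSP4, a related phosphatase gene, was at -0.49 (-0.52 to -0.46), DUSP5 at 0.31 (0.26 to 0.35), SPRY4 at 0.039 (-0.04 to 0.12), ETV4 at -0.042 (-0.11 to 0.02) and CCND1 at 0.42. Thus FOS, SPRY1, ETV1 and DUSP4 lay on the side of DUSP6, and DUSP5, MYC and CCND1 on the other. SPRY4 and ETV4 lay near a ratio of 1. The remaining tested members, SPRY2 (-0.17, -0.37 to 0.02) and ETV5 (-0.20, -0.54 to 0.12), had intervals that spanned 0. SPRY1 rests on 69 vehicle and 15 estradiol UMIs. With a minimum of 200 UMIs, 2 rather than 3 pathway genes were at least 1.5-fold lower.

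In the all-gene rows 13 of 23 of these genes met the minimum, 1 at least 1.5-fold higher and 3 lower, against 3.82% and 6.67% of all tested genes there. SPRED1 and SPRED2, inhibitors of RAS to RAF signalling, were at -0.84 (-1.34 to -0.36) and -0.60 (-0.87 to -0.33), SPRED3 at 0.78 (0.10 to 1.47) and FOS at -1.04 (-1.24 to -0.83). SPRED2 was named after its value was seen, as the remaining member past 1.5-fold. EGR1, also named after its value was seen, was at -0.57 (-0.76 to -0.38), just short of that line. Of the 13 tested members, 6 lay above a ratio of 1 and 7 below.

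**Figure D5:**
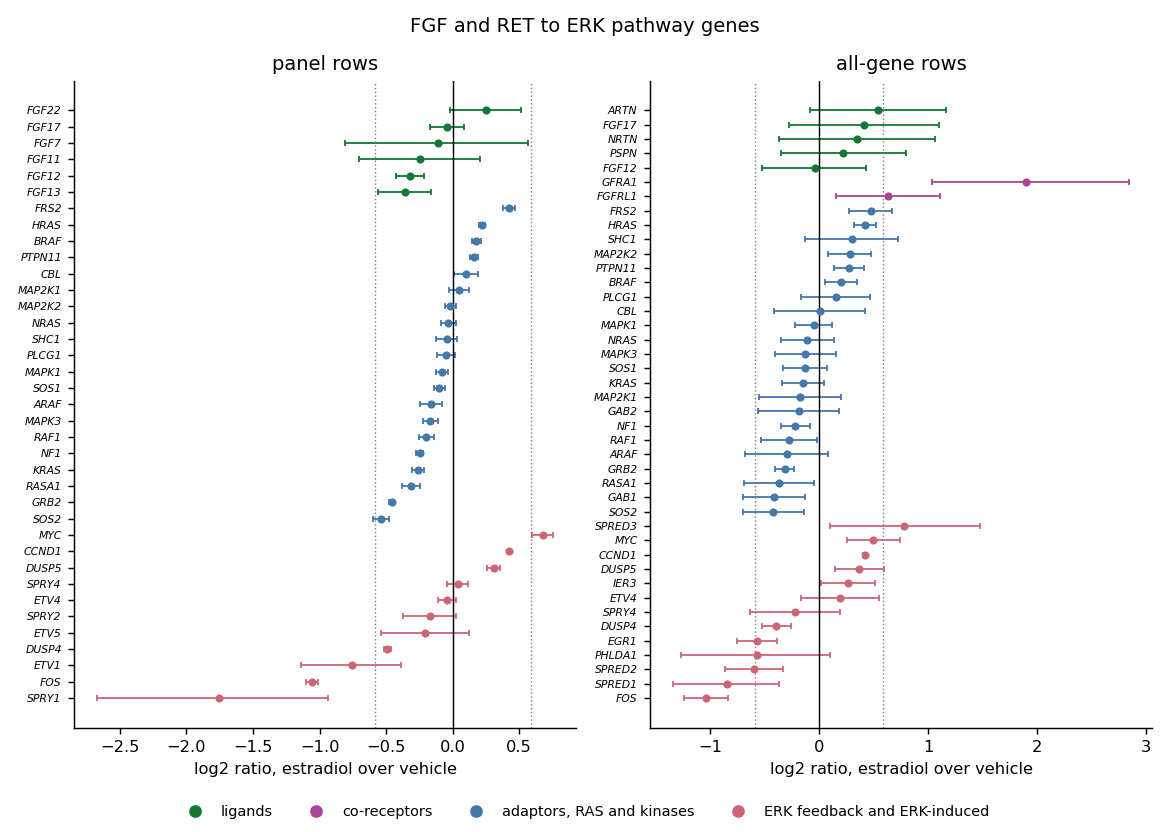
Log2 ratio of estradiol to vehicle, with exact 95% counting intervals, for pathway genes with at least 50 UMIs in panel rows (left) and all-gene rows (right), coloured by role; dotted lines mark 1.5-fold. Adaptors and kinases stay between the lines, GFRA1 has the highest all-gene ratio (1.90), and ERK feedback and ERK-induced genes spread to both sides.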

How the data were processed

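UMIs of 10x Genomics libraries were analysed for 1 vehicle and 1 estradiol sample of targeted mRNA; the repair rows of the same cells were not analysed here. The matrix deposited by the authors holds natural log values, 1 column per cell. Counts of UMIs and the mitochondrial percent per cell, and the cluster and phase of each cell, were deposited by the authors in the annotation; its score columns, deposited by the authors, were not used. The tools named, per the submitters' processing notes, are Cell Ranger 3.0.2, UMI-tools 0.5.3, SAMtools, Bowtie2 2.3.2 and cutadapt 1.8.3, with the build hg38; no role is stated for any. The sources used here do not state how the plain rows were sequenced.

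UMI counts were recovered on the basis that a deposited value is the natural log of 1 plus the count scaled to 10000 per cell: 100% of values above 0 were whole within 1e-06, and 100% of cells reached their deposited total. The planned test of counts was none, as each treatment had 1 library. UMIs were summed per library, phase or cluster (at least 50 cells in each library). Ratios have Clopper-Pearson intervals conditional on both counts, shares exact binomial and CPM exact Poisson 95% intervals. UMIs were treated as independent. A gene at or past 1.5-fold with at least 50 UMIs over both libraries was counted as called. All deposited cells were used. Doublets were not called; an alternative drops the 5% deepest cells. Alternatives were other scalings, the all-gene rows, equal weight to phases, a mean over cells, thinned cells and, chosen after seeing the data, equal weight to clusters. The ratio script was tested on simulated data. Python 3.11.15, numpy 2.4.6 and scipy 1.17.1 were used.

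Named were the 6 genes, up to 3 genes of each pathway group by size of ratio per kind of row, and 3 most similar genes each. The members and lists were chosen with earlier results of these data known. Levels are UMIs not scaled by length, and panel capture can differ between genes, so no gene's level was ranked against another's.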

Additional observations from a re-analysis of the deposited data

How the results depend on the processing

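In 8 alternatives per gene, among them the all-gene rows, the log2 ratio kept its sign for all 6 genes. For FGFR1 and FGFR2 a kept sign sets no direction, as their values came as near to 0 as -0.011 and -0.0044. The values below left the counting interval of the main value. With a median-of-ratios size factor FGFR1 was at -0.013, FGFR4 at -0.56, RET at 0.95 and DUSP6 at -0.97. With the 10 most abundant genes left out of the total, FGFR1 was at -0.061, RET at 0.90 and DUSP6 at -1.02. In the all-gene rows FGFR1 was at -0.011, FGFR2 at -0.88, FGFR3 at 0.44, RET at 0.94 and DUSP6 at -0.97; FGFR2 and FGFR3 rest on 22 and 13 UMIs there. With equal weight to each phase FGFR1 was at -0.080, FGFR4 at -0.60 and DUSP6 at -1.01. As a mean over cells FGFR1 was at -0.14 and DUSP6 at -1.15, and without the 5% deepest cells DUSP6 was at -1.12. In thinned cells FGFR1 was at -0.13, FGFR2 at -0.78 and DUSP6 at -1.19; 1 draw left 60 and 25 cells with FGFR2. With equal weight to each cluster, an alternative chosen after seeing the data, FGFR1 was at -0.090, FGFR4 at -0.58, RET at 0.75 and DUSP6 at -0.76. FGFR4 passed below 1.5-fold with the size factor and with the cluster weights. The count of pathway genes at least 1.5-fold higher was 4 with no minimum of UMIs and 3 in the all-gene rows, against 1, and the count lower was 5 with no minimum, against 3. The cause of these differences was not tested. No paired analysis was possible because each treatment had 1 library. Depth limits FGFR2 and FGFR3, which had 277 and 290 panel UMIs in all.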

Other observations

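In cells thinned to 1000 panel UMIs, the detection of a gene was compared between cells with and without a UMI of another. This comparison, of FGFR4 and DUSP6 by RET and of FGFR4 by DUSP6, was not part of the plan. FGFR4 was seen in 43.4% of vehicle G1 cells with RET (exact binomial 39.9 to 46.9, 802 cells) and 33.9% of those without (31.6 to 36.2, 1630 cells). In estradiol G1 cells it was seen in 31.2% with RET (27.5 to 35.1) and 23.2% without (19.8 to 27.0). In S cells FGFR4 was seen in 31.2% with RET and 24.7% without (vehicle, intervals overlapping) and in 26.5% and 17.5% (estradiol). In G2M cells the shares were 17.2% and 14.6% (vehicle) and 12.1% and 8.09% (estradiol), with overlapping intervals in each library. DUSP6 was seen in 66.8% of vehicle G1 cells with RET (63.5 to 70.1) and 75.1% without (72.9 to 77.2), and in 44.4% and 47.6% of estradiol G1 cells, where the intervals overlapped. In S and G2M cells the DUSP6 intervals with and without RET overlapped in both libraries, and the order varied: 59.2% and 62.6% in vehicle S, 60.7% and 59.1% in vehicle G2M, 42.5% and 41.5% in estradiol S, and 34.1% and 37.4% in estradiol G2M. FGFR4 was seen in 34.5% of vehicle G1 cells with DUSP6 (32.3 to 36.8) and 43.6% without (39.8 to 47.4). In every other phase and library its share was also lower with DUSP6, but with overlapping intervals. Each phase pools clusters of unlike level. With vehicle, RET was at 727 CPM in cluster 5 and 306 in cluster 6, and DUSP6 at 1002 and 2504. Whether the shares differ within clusters was not tested. Intervals cover counting error over cells of 1 library, and no test was made.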
